A study of Homo sapiens with 2 samples.

Results

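The genes described here are 10 genes of eIF2 signalling, chosen by name from the gene tables of both libraries. They comprise 3 eIF2 kinases (EIF2AK1, EIF2AK2 and EIF2AK4), the 3 subunits of eIF2 (EIF2S1, EIF2S2 and EIF2S3), 2 subunits of eIF2B (EIF2B4 and EIF2B5), and the PP1 regulatory subunits PPP1R15A (GADD34) and PPP1R15B. They are 10 of 22595 gene symbols, and all 10 were among the 14240 measured symbols, those whose counts in the 2 libraries summed to 20 or more. RNA was sequenced from 786-O, an established cell line of human clear cell kidney cancer without functional VHL, in a culture in 0 mM glucose medium and a culture in 25 mM glucose medium. How long the cells were without glucose is not stated in the labels, which also carry an unexplained short name for each culture, LucG without glucose and LucF with glucose. Any other difference between the cultures and the difference in glucose cannot be told apart. With 1 library per condition there is no replicate and no test, so that "higher" and "lower" describe these libraries, and every interval covers counting error only.

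eIF2 is the trimeric GTP-binding factor that brings the initiator tRNA to the ribosome. Stress-activated kinases phosphorylate its alpha subunit, and phosphorylated eIF2 blocks eIF2B, the exchange factor that recharges eIF2 with GTP, so that most translation falls while a few transcripts such as ATF4 are translated better. PP1 removes the phosphate when bound to PPP1R15A, whose transcript is induced by stress, or to PPP1R15B, which is made constitutively, and this restores translation. Endoplasmic reticulum (ER) stress, which loss of glucose can bring about through poor protein glycosylation, acts on eIF2 through the kinase PERK (EIF2AK3).

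PPP1R15A was the only one of the 10 genes that passed the size rule. Its transcript had 12975 counts without glucose and 886 with glucose, which is 422 against 31.8 CPM (counts per 1e6 of the effective library size). The other 9 genes lay between a fold of 0.785 (EIF2AK4) and 1.16 (EIF2S2), without over with glucose. A gene was called higher or lower when the exact 95% Clopper-Pearson counting interval of its ratio lay wholly above 2-fold or wholly below 0.5-fold. By this rule 1 of 10 was higher, where 3.74% of all measured genes were higher, and 0 of 10 were lower, where 6.20% of measured genes were lower. With the bound at 1.5-fold the count of higher genes was again 1, against 10.2% of measured genes, and that of lower genes 0, against 12.6%. Since 77.2% of measured genes passed neither 1.5-fold bound, the small changes of the other 9 genes are common in these libraries. Of the 10 genes 9 passed neither 2-fold bound, as did 90.1% of measured genes. The interval lay wholly above a fold of 1 for 3 of the 10 genes, against 37.4% of measured genes, and wholly below it for 5, against 36.5%. The median log2 ratio of the 10 genes was -0.11, against 0.01 over all measured genes.

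**Figure D1:**
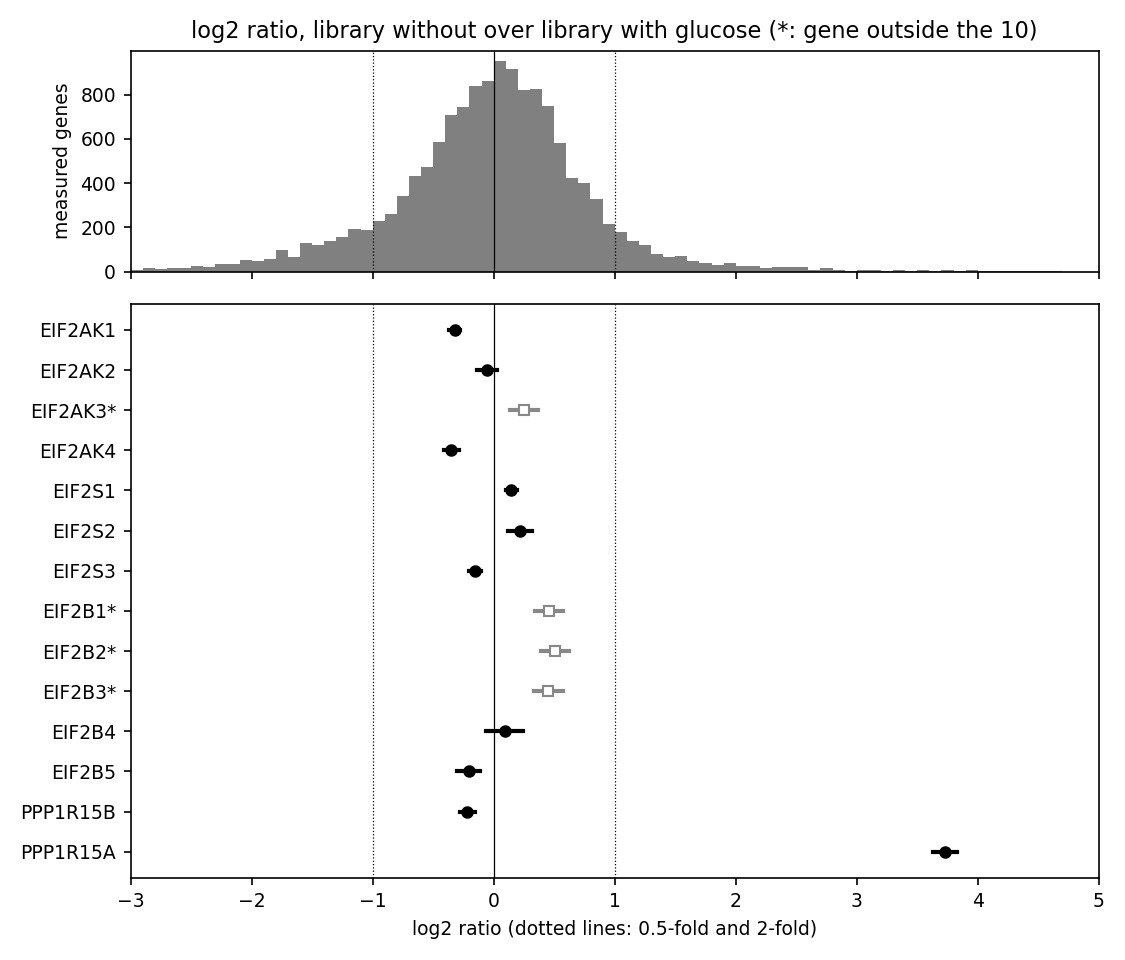
The lower panel shows the log2 ratio, library without over library with glucose, of the 10 genes (filled circles) and of EIF2AK3 and EIF2B1 to EIF2B3 (open squares, starred), with lines for the 95% counting intervals, and the upper panel the number of measured genes in bins of the same axis, which leaves out genes beyond its ends. PPP1R15A stands at 3.73, past the dotted line of 2-fold, and the other 9 genes lie between -0.35 and 0.22.

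The libraries held 31345853 counts without glucose and 27317598 with glucose. Small RNA genes took 8.02% of the counts without glucose and 5.86% with glucose, and in all measured genes the ratio moved with gene length, with a median log2 ratio of 0.31 in the shortest of 10 length classes and -0.21 in the longest. All 8 renal and carcinoma line markers reached 1 CPM in at least 1 library, among them PAX8, a renal lineage transcription factor, at 232 CPM without glucose and 244 CPM with glucose. Other markers of this list differed between the cultures. CDH6, a kidney cadherin, had 8.36 CPM without glucose and 192 CPM with glucose, and the transcription factor gene LHX1 3.38 CPM against 19.5 CPM. EPAS1, which encodes HIF-2 alpha, had 422 CPM without glucose and 134 CPM with glucose. The part of these differences in the results was not tested. Markers of endothelium summed to 0.390 CPM without glucose and 1.72 CPM with glucose, and those of fibroblasts to 9.14 CPM without glucose and 19.1 CPM with glucose. Of the leukocyte markers, CD68 had 25.6 CPM without glucose and 10.7 CPM with glucose, and the others had at most 9 counts in a library. In RNA from a whole culture, a change in every cell and a change in a share of the cells cannot be told apart.

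PPP1R15A was 13.3-fold higher without glucose (interval 12.4 to 14.2), a log2 ratio of 3.73. This placed it at rank 35 of the 14240 measured genes by log2 ratio, and 0.428% of them differed by more in either direction. By CPM it was the 335th most counted measured gene without glucose and the 6187th with glucose. Its 3 exons each had more than 10 reads in both libraries, per the tables. Its gene model, chr19:49375649-49379319 on the plus strand (hg19, as the tables give this and the following positions), is overlapped by no other model of the tables.

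PPP1R15B, the constitutive PP1 partner, had 4431 counts and 144 CPM without glucose, against 4664 counts and 167 CPM with glucose, a fold of 0.861 (interval 0.826 to 0.897). It has 2 exons and lies at chr1:204372492-204380944 on the minus strand. The 2 regulatory subunits therefore changed places. Per kilobase of gene model, PPP1R15A stood at 6.49 times PPP1R15B without glucose (interval 6.27 to 6.71) and at 0.421 times with glucose (0.391 to 0.452). PPP1R15A made up 86.6% of the RPKM of the pair without glucose and 29.6% with glucose, where RPKM is the count per kilobase of gene model and per 1e6 of the effective library size. Ratios of 2 genes within 1 library do not depend on the scaling between libraries.

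The PP1 catalytic subunits, which carry the phosphatase activity and serve many other partners, all passed neither 2-fold bound, as did 90.1% of measured genes. PPP1CA had 125 CPM without glucose and 138 CPM with glucose, PPP1CB 551 CPM against 499.8 CPM, and PPP1CC 143 CPM against 185 CPM, with log2 ratios of -0.14, 0.14 and -0.37.

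**Figure D2:**
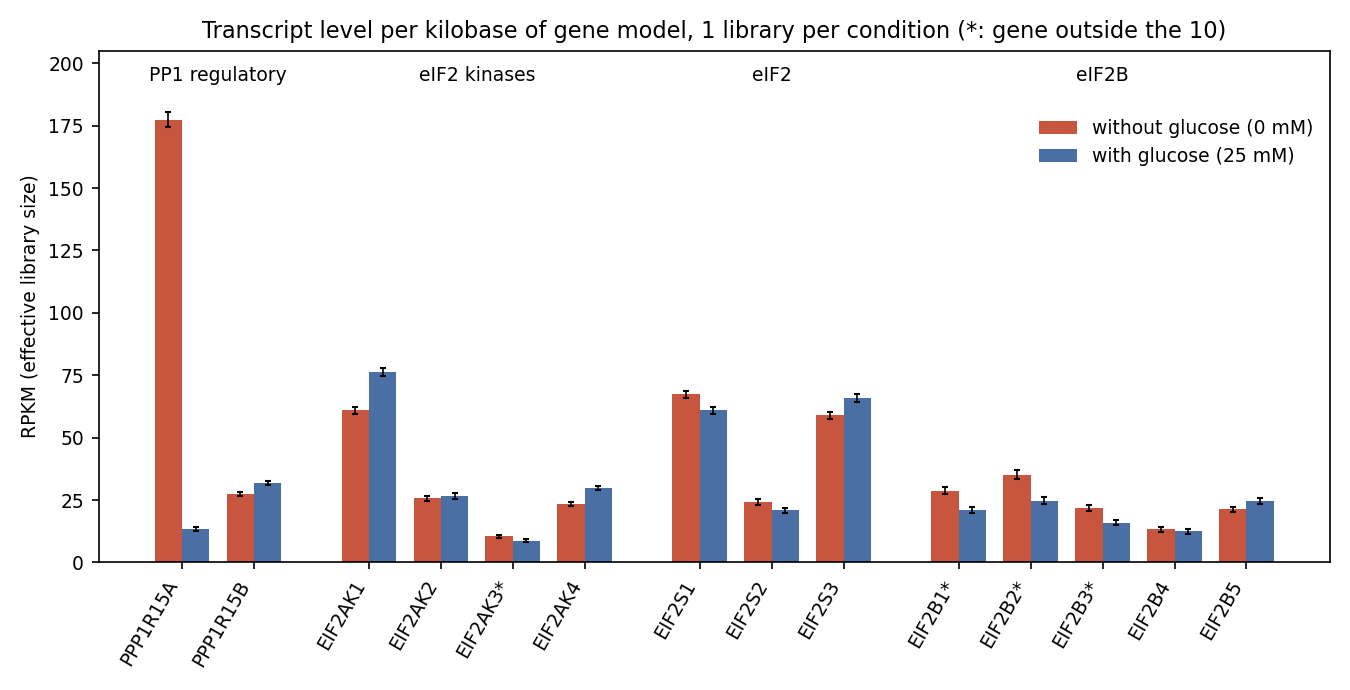
Bars give the level per kilobase of gene model (RPKM, vertical axis from 0) of the PP1 regulatory subunits, the eIF2 kinases, eIF2 and eIF2B in the library without glucose (left bar) and the library with glucose (right bar), with lines for the exact 95% Poisson counting interval and stars for genes outside the 10. PPP1R15A has the highest bar without glucose, at 177 RPKM, against 13.4 RPKM with glucose, where EIF2AK1 is highest of the 10 genes at 76.2 RPKM.

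The promoters of PPP1R15A and PPP1R15B are shown because these paralogues with the same role in dephosphorylation had different ratios. Sequences are from RefSeq (GRCh38.p14), which gave a promoter for 8 of the 10 genes and 2 for EIF2B4. Each runs from 250 to 31 bases before the annotated start, and capitals mark matches to a motif. The PPP1R15A promoter is chr19:48872171-48872390 on the plus strand and the PPP1R15B promoter chr1:204411848-204412067 on the minus strand.
PPP1R15A: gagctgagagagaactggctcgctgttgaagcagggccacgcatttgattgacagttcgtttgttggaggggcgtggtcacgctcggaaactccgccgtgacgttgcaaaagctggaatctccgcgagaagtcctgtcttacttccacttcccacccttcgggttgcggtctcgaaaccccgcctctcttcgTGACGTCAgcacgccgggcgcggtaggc
PPP1R15B: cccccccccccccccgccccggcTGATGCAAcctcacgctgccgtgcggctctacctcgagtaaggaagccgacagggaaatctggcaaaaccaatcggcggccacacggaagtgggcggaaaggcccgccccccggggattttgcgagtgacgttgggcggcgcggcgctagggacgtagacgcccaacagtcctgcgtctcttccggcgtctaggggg

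Motifs were searched on both strands in the full window from 250 bases before the start to 50 after it. The CRE, TGACGTCA, which ATF and CREB proteins bind, was found in the PPP1R15A promoter, from 58 to 51 bases before the start, and in no other of the 8 genes. Of all 35116 promoters, 1.85% hold it. The letters TGATGNAA, taken here for the CARE element of ATF4 and C/EBP dimers, were found in the PPP1R15B promoter, from 227 to 220 bases before the start, and are held by 3.62% of all promoters. The ER stress motifs TGACGTGG (UPRE) and CCAAT followed after 9 bases by CCACG (ERSE) were in 0 of the 8 genes' promoters, against 0.729% and 0.0769% of all promoters. A match to letters describes the sequence and shows no binding, and a missing match says only that the letters are not in this window. The part of these motifs in the ratios was not tested.

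Of the kinases, none passed the size rule, where 90.1% of measured genes passed neither 2-fold bound. EIF2AK1 and EIF2AK4 were lower by more than counting error, as were 36.5% of measured genes. EIF2AK1 (HRI), which responds to low haem and to mitochondrial stress, had 8331 counts without glucose and 9443 with glucose, which is 271 CPM against 339 CPM and a fold of 0.799 (interval 0.776 to 0.823). EIF2AK4 (GCN2), which senses amino acid shortage, had 3946 counts without glucose and 4555 with glucose, 128 CPM against 164 CPM and a fold of 0.785 (interval 0.752 to 0.819). EIF2AK2 (PKR), which is activated by double-stranded RNA, had 2295 counts without glucose and 2162 with glucose, 74.6 CPM against 77.6 CPM, and the interval of its fold of 0.962 held 1 (0.906 to 1.02). The gene models lie at chr7:6061878-6098860 (EIF2AK1, minus strand), chr15:40226347-40327797 (EIF2AK4, plus strand) and chr2:37333699-37384190 (EIF2AK2, minus strand). Reads lay on all 39 exons of EIF2AK4, all 16 of EIF2AK1 and 17 of 18 of EIF2AK2 in both libraries, counting exons with more than 10 reads.

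EIF2AK1 had the highest level of the kinases in both libraries, at 60.9 RPKM without glucose and 76.2 RPKM with glucose. PERK (EIF2AK3), the ER stress kinase, which is not among the 10 genes, had the lowest level in both, at 10.4 RPKM without glucose and 8.77 RPKM with glucose, and its fold was 1.19 (interval 1.10 to 1.29). EIF2AK1 thus made up 50.6% of the RPKM of the 4 kinases without glucose and 53.8% with glucose, and EIF2AK3 8.67% and 6.20%. The summed level of the 4 kinases was 120 RPKM without glucose and 141 RPKM with glucose. EIF2AK2 and EIF2AK4 lay close together. EIF2AK4 stood at 0.915 times EIF2AK2 without glucose (interval 0.869 to 0.964) and at 1.12 times with glucose (1.07 to 1.18). This difference in order is not firm, since the model of EIF2AK4 is the longer one and, relative to the median of the length class, the log2 ratios of EIF2AK4 and EIF2AK2 were -0.19 and -0.11, against -0.35 and -0.06 without this step.

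EIF2AK2 is an interferon-induced gene, and of the 20 measured interferon-stimulated genes 6 were lower and 0 higher. Their median log2 ratio was -0.72, against 0.01 over all measured genes, of which 6.20% were lower and 3.74% higher. OAS3, an antiviral oligoadenylate synthetase, had 33.2 CPM without glucose and 137 CPM with glucose, and OAS1, OASL and IFI44L were among the lower genes at 12 to 26 counts without glucose and 45 to 96 with glucose. EIF2AK2, at a log2 ratio of -0.06, was not lower by the rule. Its promoter alone among the 8 genes held the core of an interferon-stimulated response element, GAAA followed after 2 bases by GAAA, which 3.57% of all promoters hold. The match spans the annotated start, and capitals mark it in the window shown, chr2:37156967-37156996 on the minus strand.
EIF2AK2: agtccaagggGAAAACGAAActgagaacca

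The list of kinase regulators and eIF2 binding factors had 2 of 12 measured genes higher and 0 lower, around a median log2 ratio of 0.16. Over all measured genes 3.74% were higher and 6.20% lower, and the median was 0.01. Of the 12 genes, 8 had a log2 ratio above 0 and 4 below it. DNAJC3 (p58IPK), an ER cochaperone also described as an inhibitor of PKR and PERK, had 294 CPM without glucose and 98.2 CPM with glucose, a fold of 2.99 (interval 2.87 to 3.12). PRKRA (PACT), a protein activator of PKR, had 81.4 CPM without glucose and 34.0 CPM with glucose, a fold of 2.39 (interval 2.22 to 2.58). The other genes of this list passed neither bound, and those given here were named after their values were seen. TARBP2, ADAR and PRKRIR had log2 ratios of -0.19, -0.29 and 0.09. IMPACT, which inhibits GCN2, had a log2 ratio of 0.69 and GCN1L1, which GCN2 needs for its activation, one of -0.39. KIAA0141 (DELE1) and OMA1, which relay mitochondrial stress to HRI, had log2 ratios of 0.47 and 0.59.

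The eIF2 subunits were close to even between the libraries. EIF2S1, the alpha subunit that the kinases phosphorylate, had 8606 counts without glucose and 7052 with glucose, 279.9 CPM against 253 CPM and a fold of 1.11 (interval 1.07 to 1.14). EIF2S2, the beta subunit, had 1928 counts without glucose and 1500 with glucose, 62.7 CPM against 53.9 CPM and a fold of 1.16 (interval 1.09 to 1.25). EIF2S3, the gamma subunit that binds GTP and the initiator tRNA, had 6258 counts without glucose and 6319 with glucose, 204 CPM against 227 CPM and a fold of 0.897 (interval 0.866 to 0.929). The gene models lie at chr14:67827034-67853233 (EIF2S1, plus strand), chr20:32676115-32700085 (EIF2S2, minus strand) and chrX:24073065-24096927 (EIF2S3, plus strand). The alpha and beta subunits were thus slightly higher and the gamma subunit slightly lower. Summed over the 3 subunits, the level was 151 RPKM without glucose and 147 RPKM with glucose.

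EIF2S2 had the lowest level of the eIF2 subunits in both libraries, at 0.361 times EIF2S1 without glucose (interval 0.343 to 0.379) and 0.342 times with glucose (0.324 to 0.362). EIF2S3 lay below EIF2S1 without glucose, at 0.875 times (interval 0.847 to 0.905), and above it with glucose, at 1.08 times (1.04 to 1.12). PPP1R15A stood at 2.63 times EIF2S1, the subunit it helps to dephosphorylate, without glucose (interval 2.56 to 2.71), and at 0.219 times with glucose (0.204 to 0.235). RefSeq names 7 further copies of EIF2S2, 3 of EIF2S3 and 1 of EIF2AK1 in the genome, and whether reads shared with them were counted is not given, so that the levels of these genes are uncertain to that extent. The AIMP2 gene model overlaps that of EIF2AK1 by 1588 bases on the opposite strand. AIMP2 had 2520 counts without glucose and 1990 with glucose, and since the use of strand is not given, reads of the overlap cannot be told apart.

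Neither eIF2B subunit among the 10 genes passed the size rule. EIF2B5, the catalytic epsilon subunit, had 1888 counts without glucose and 1975 with glucose, 61.4 CPM against 70.9 CPM and a fold of 0.866 (interval 0.813 to 0.923). EIF2B4, the regulatory delta subunit, was the least counted of the 10 genes, with 766 counts without glucose and 652 with glucose, 24.9 CPM against 23.4 CPM, and the interval of its fold of 1.06 held 1 (0.957 to 1.18). Its direction also depended on the scale, with a log2 ratio of 0.09, and of -0.06 relative to the median of its length class. The gene models lie at chr3:183852810-183863099 (EIF2B5, plus strand) and chr2:27587219-27593324 (EIF2B4, minus strand). In both libraries 12 of the 15 exons of EIF2B4 had more than 10 reads, against 16 of 16 for EIF2B5.

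The other eIF2B subunits also passed neither 2-fold bound, as did 90.1% of measured genes, and had higher ratios. EIF2B1 (alpha) had 53.4 CPM without glucose and 38.9 CPM with glucose, a fold of 1.37 (interval 1.27 to 1.48). EIF2B2 (beta) had 53.9 CPM against 37.95 CPM, a fold of 1.42 (1.31 to 1.54), and EIF2B3 (gamma) 46.4 CPM against 34.0 CPM, a fold of 1.37 (1.26 to 1.48). The counting intervals of these 3 subunits did not overlap those of EIF2B4 and EIF2B5, but they hold no spread between cultures. By such intervals 37.4% of measured genes lay wholly above a fold of 1 and 36.5% wholly below it. How often the intervals of different genes fail to overlap was not counted over all genes. EIF2B1, EIF2B2 and EIF2B3 have models of 1861, 1533 and 2140 bases, in length classes with median log2 ratios of 0.15, 0.17 and 0.05. EIF2B4 and EIF2B5 are in classes at 0.15 and 0.05, and the part of length was not tested. The order within the complex differed between the libraries, as the plot of levels shows. EIF2B2 stood at 1.65 times EIF2B5 without glucose (interval 1.54 to 1.76) and at 1.01 times with glucose (0.933 to 1.08), and EIF2B1 at 1.35 times without glucose (1.26 to 1.44) and 0.849 times with glucose (0.788 to 0.915). EIF2B3 stood at 1.02 times EIF2B5 without glucose (interval 0.949 to 1.09) and at 0.645 times with glucose (0.596 to 0.697). EIF2B4 stood at 0.621 times EIF2B5 without glucose (interval 0.570 to 0.676) and 0.505 times with glucose (0.462 to 0.552).

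By level per kilobase, the 10 genes spanned 13.2 to 177 RPKM without glucose and 12.4 to 76.2 RPKM with glucose. PPP1R15A was first without glucose and 9th with glucose, where EIF2B4 alone lay below it, and the interval of their ratio of 1.08 held 1 (0.971 to 1.19). Without glucose EIF2S1, EIF2AK1 and EIF2S3 followed PPP1R15A, and of these EIF2AK1 and EIF2S3 did not differ beyond counting error, with a ratio of 1.03 (interval 0.9996 to 1.07). In the lower part of that order EIF2AK2 and EIF2S2, and EIF2S2 and EIF2AK4, did not differ beyond counting error either. With glucose the order was EIF2AK1, EIF2S3, EIF2S1, PPP1R15B, EIF2AK4, EIF2AK2, EIF2B5, EIF2S2, PPP1R15A and EIF2B4, and each of the first 8 was above the next beyond counting error.

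**Figure D3:**
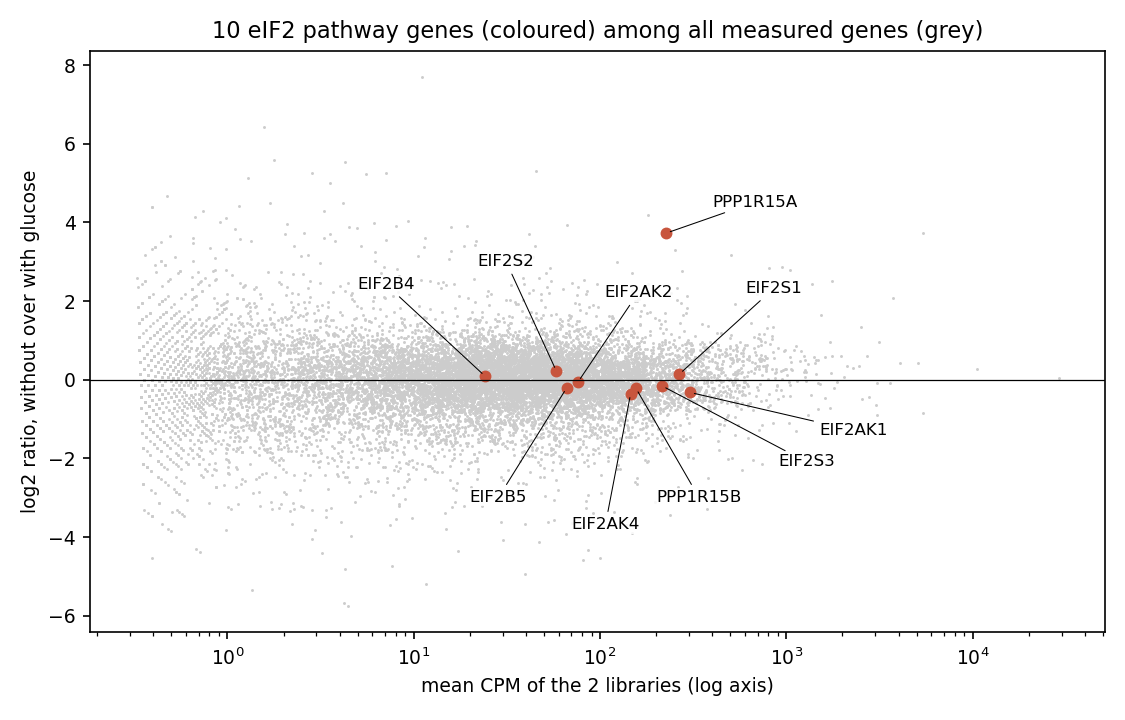
Each point is a measured gene, with the mean CPM of the 2 libraries on a log axis and the log2 ratio, without over with glucose, on the vertical axis, and the 10 genes are coloured and named. PPP1R15A lies at 3.73 among well counted genes, and the other 9 lie in the dense band around 0.

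Ratios of genes with long models were lower throughout these libraries, and gene length also differed among the 10. EIF2AK4 and PPP1R15B have models of 5473 and 5273 bases, in a length class whose median log2 ratio was -0.16, and EIF2AK1 one of 4450 bases, in a class at -0.10. Relative to the median of its class, the log2 ratio was -0.19 for EIF2AK4, -0.22 for EIF2AK1 and -0.05 for PPP1R15B, against -0.35, -0.32 and -0.22 without this step. The part of length in the differences was not tested further. PPP1R15A, at 2380 bases, kept a log2 ratio of 3.68 relative to its class.

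The genes nearest to PPP1R15A over log2 RPKM in the 2 libraries, by Euclidean distance, were ADAMTS1, DDIT3 and GADD45A. ADAMTS1, a secreted metalloprotease, had 911 CPM without glucose and 102 CPM with glucose (distance 0.729). DDIT3, the gene of the stress-induced transcription factor CHOP, had 342 CPM without glucose and 18.6 CPM with glucose (distance 0.755), and GADD45A, a growth arrest gene, 128 CPM against 25.0 CPM (distance 1.02). With 2 libraries this likeness is one of level and ratio alone.

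Factors and targets of the integrated stress response, the programme downstream of eIF2 phosphorylation, had 7 of 20 measured genes higher and 0 lower. Their median log2 ratio was 0.60, against 0.01 over all measured genes, of which 3.74% were higher and 6.20% lower. Of the 20 genes, 16 had a log2 ratio above 0 and 4 below it. Those below were PSAT1 at a fold of 0.595 (interval 0.579 to 0.612), SLC7A11 at 0.771 and CHAC1 at 0.880. PHGDH was also below, with only 21 counts without glucose and 26 with glucose. DDIT3 was 18.3-fold higher (interval 16.8 to 20.1), the transcription factor gene ATF3 10.6-fold at 81.8 CPM without glucose against 7.76 CPM with glucose, the CD98 heavy chain gene SLC3A2 7.28-fold, and the pseudokinase gene TRIB3 4.41-fold. ATF4, which phosphorylated eIF2 controls mainly through translation, had 299.9 CPM without glucose and 222 CPM with glucose, a fold of 1.35 (interval 1.31 to 1.40), within the bounds. The libraries measure transcripts, and neither the phosphorylation of eIF2 nor translation is measured by them.

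Other initiation factors set the scale for the eIF2 and eIF2B subunits. Over all measured genes 3.74% were higher, 6.20% lower and 90.1% neither, and the median log2 ratio was 0.01. Of 11 measured start codon and ternary complex partners, 2 were higher and 0 lower, and the median was 0.06 on the log2 scale. EIF1, which guards the choice of the start codon, had 255 CPM without glucose and 76.0 CPM with glucose, a fold of 3.35 (interval 3.19 to 3.52). EIF2A, an initiation factor of its own that is unrelated to the alpha subunit of eIF2, had 307 CPM without glucose and 116 CPM with glucose, a fold of 2.65 (interval 2.54 to 2.76). Of the eIF3 subunits 12 of the 13 listed were matched to the tables, and 0 of these 12 passed the rule in either direction, with a median of 0.43 and log2 ratios from 0.05 to 0.96. Many eIF3 models are short. EIF3K is in the length class with a median log2 ratio of 0.31, and EIF3E to EIF3I and EIF3M are in the class at 0.17. The other eIF3 subunits are in classes from -0.16 to 0.15, and EIF2S1, EIF2S2 and EIF2S3 in classes at -0.07, 0.05 and -0.03. The part of length was not tested. None of the 11 eIF4 factors passed the rule, with a median of -0.06 and log2 ratios from -0.76 to 0.75. With the bound at 1.5-fold, 10.2% of all measured genes were higher and 12.6% lower. By that bound 4 start codon and ternary complex partners, 3 eIF3 subunits and 1 eIF4 factor were higher, and 0, 0 and 2 were lower.

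**Figure D4:**
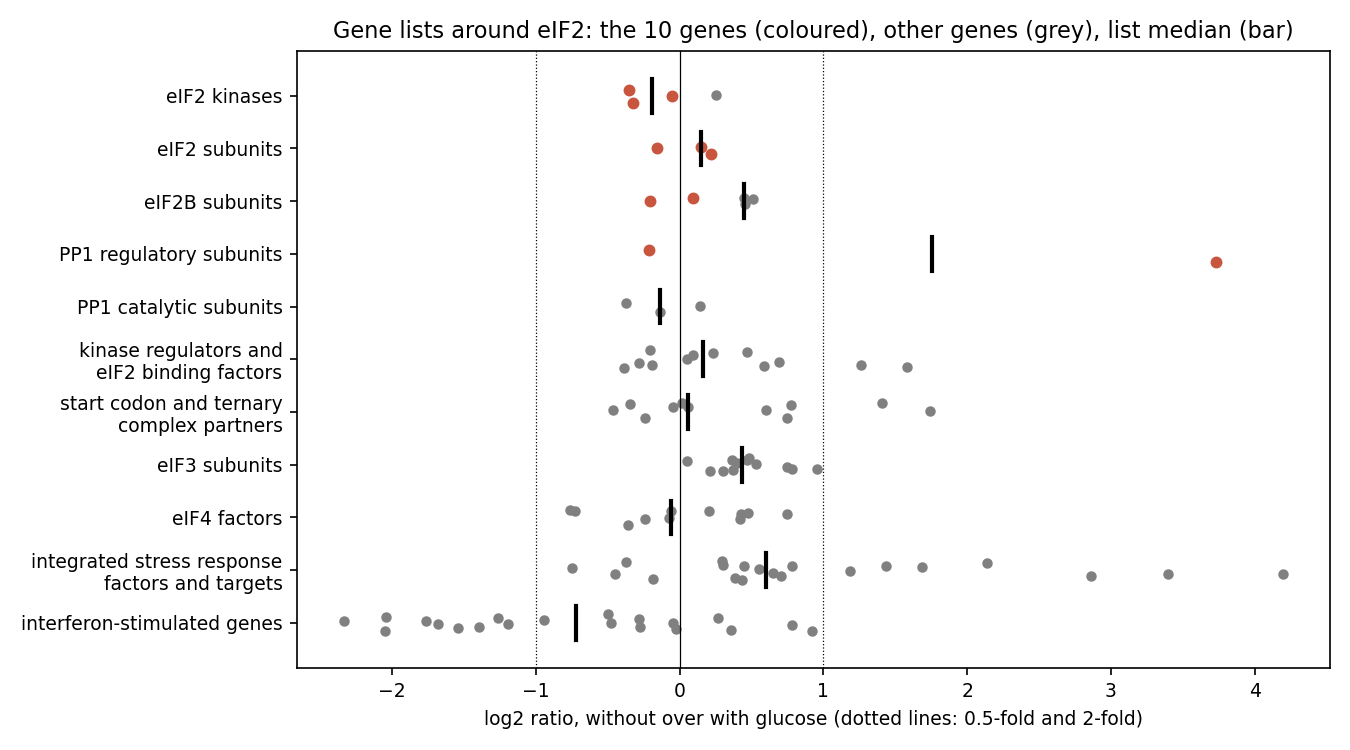
Points give the log2 ratio, without over with glucose (horizontal axis), of each measured gene of 11 lists, with the 10 genes coloured, other genes grey and a bar at each list's median. PPP1R15A at 3.73 stands with the highest genes of the integrated stress response list, while the kinases, eIF2 and eIF2B lie inside the dotted lines of 0.5-fold and 2-fold.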

How the data were processed

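Per the labels' protocols, RNA of 786-O cells was isolated using Trizol. Per the submitters' processing notes, the build was hg19. Not given in the sources used here are library preparation, aligner, counting program and use of strand. The deposited counts were whole numbers per gene model, per the file headers. The deposited RPKM values, per the file headers, were used only for a check: they were the counts per kilobase and per 31.0 (without glucose) or 27.1 (with glucose) units of 1e6 reads. RPKM values in the text were recomputed. In all 3553 rows with 1 exon the length equalled the end minus the start, so that starts may be counted from 0.

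Of 24364 rows, 528 were left out because a different symbol had the same place, length and counts, and the remaining counts were added up per symbol. Library sizes were scaled by TMM factors from measured genes (edgeR 4.0.16, R 4.3.3), 0.981 without glucose and 1.02 with glucose. Ratios used no pseudocount. Their exact 95% intervals came from the share of a gene's counts in each library, checked on simulated data (Python 3.11.15, scipy 1.17.1). The simulated counts had Poisson error alone, so this checked the calculation and not the spread between real cultures. A count of 0 would be set to a floor of 3 counts, and none of the 10 genes had one. PCR copies of 1 molecule count more than once, which these intervals leave out. edgeR's quasi-likelihood test needs replicates and was not run. DESeq2 1.42.0 gave size factors as an alternative.

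The 10 genes, lists and motifs were chosen with earlier results of these data known. The genes named were the 10 genes, up to 4 genes past the size rule per list, all genes of lists of up to 5, ATF4, DDIT3 and ATF3, the 3 genes nearest to PPP1R15A, and overlapping genes. Marker genes fall outside this rule, as do PSAT1, SLC7A11, CHAC1 and PHGDH. So do the regulators TARBP2, ADAR, PRKRIR, IMPACT, GCN1L1, KIAA0141 and OMA1. All of these were picked with their values in view. EIF2D was matched as LGTN through RefSeq transcripts or synonyms, ADAR is in both the regulator and the interferon lists, and names follow the tables.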

Additional observations from a re-analysis of the deposited data

How the results depend on the processing

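The median log2 ratio of the 10 genes, -0.11 as reported, lay between -0.16 (total counts) and -0.07 (upper-quartile factors). The counts of 1 higher gene and 0 lower genes were the same under every setting run. These were total counts, DESeq2 size factors, upper-quartile factors, small RNA genes left out, centring on length classes, repeated rows kept, and, chosen after seeing the data, TMM factors from all symbols. The counts were also run with a bound of 1.5-fold, with the ratio itself past 2-fold, and with at least 1 or at least 100 counts. Over 8 settings besides the one reported, including a pseudocount of 1 CPM, the log2 ratio of PPP1R15A lay between 3.67 and 3.77, and 9 of the 10 genes kept their direction. EIF2B4 did not, with a range from -0.06 to 0.13, and was below 0 only when centred on length classes. The sizes of small ratios moved as well. The log2 ratio of PPP1R15B ranged from -0.27 to -0.05, that of EIF2AK4 from -0.41 to -0.19 and that of EIF2AK1 from -0.38 to -0.22. How many intervals lay wholly above or below a fold of 1 was counted for the reported setting only. The median of all measured genes moved between -0.05 and 0.05. No replicate could be left out, and no paired analysis was possible because there was 1 library in each condition.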
